A study of Mus musculus with 3 samples.

Results

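Integrins are paired cell surface receptors, each made of an alpha and a beta chain, that hold T cells to other cells and to extracellular matrix. Talin and kindlin bind the beta chain tail inside the cell and switch the receptor to its active form, and vinculin, paxillin and integrin-linked kinase tie it to the actin skeleton. On T cells the chains Itgal and Itgb2 form LFA-1, the receptor for ICAM ligands, Itga4 pairs with Itgb1 or Itgb7 to bind vascular and gut ligands, and Itgae pairs with Itgb7 in cells held in epithelium. The genes described here are 35 integrin and adhesion genes taken from a list of names: 15 alpha chains, 8 beta chains, 6 cytoplasmic linkers and regulators, 2 ICAM ligands, the selectin ligand gene Selplg, the hyaluronan receptor gene Cd44, and Emp1 and Emp3. The Emp genes encode membrane proteins related to PMP22 and are neither integrins nor linkers. Each gene was read from probe sets annotated with exactly its symbol, and the brightest on average stood for it, among 19935 genes named in this way. Of the 35 genes, 34 had a single probe set.

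The cells were naive CD4+ T cells of wild-type C57BL/6 mice, 8 weeks old. The 3 cultures received vehicle in medium, IL-21, or both IL-6 and TGFb1, and each culture was measured on 1 array. The labels state neither doses, culture time, T cell receptor stimulation nor whether mice were pooled. IL-6 and TGFb1 were added only together, so their parts in a difference cannot be told apart. With 1 array for each culture there was no replicate error, no test was possible, and every difference below compares 2 arrays.

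Values are probe set intensities on a linear scale, with medians between 182 and 191 on the 3 arrays. A difference is log2(intensity + 1) on one array minus that on another. A gene was compared if its highest intensity reached 187, the median of all values, which 11003 genes did. Where a gene had at least 2 probe sets this bright (629 genes), the differences of its brightest pair were a median of 0.06 apart in each comparison with medium, and the 95th percentile of that gap was 0.41 for IL-21 and 0.37 for IL-6 and TGFb1. This gap compares probe sets of a gene on the same 2 arrays, and tells nothing of how far repeat cultures would differ. The 10 T cell marker genes read reached the filter on every array, with intensities from 665 to 6858. One of them, the T cell receptor adaptor gene Trat1, had 2803 with medium, 1560 under IL-21 and 665 under IL-6 and TGFb1 (differences from medium of -0.84 and -2.07), and its part in the results was not tested. Of 39 markers of other cell types, 9 reached the filter, among them 5 of 9 stromal and epithelial markers. The brightest was Cd8b1, at 810 with medium, 731 under IL-21 and 616 under IL-6 and TGFb1. The summed intensity of all 39, most of them below the filter, was 6302 with medium, 5933 under IL-21 and 5918 under IL-6 and TGFb1. RNA was taken from whole cultures, so fewer cells that express a gene and less of its RNA per cell cannot be told apart.

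Of the 35 genes, 26 were compared, and 5 of them differed by at least 1.5-fold in some comparison: Emp1, Itga3, Itgb7, Itgb1 and Itgb3. Their promoters are shown for that reason, as RefSeq gives them for 4 of the 5, and the promoter of Itgb3 was not used here. RefSeq windows were matched for 24 of the 35 genes. Each sequence is the 250 bases before the transcription start, on the gene's strand, in build GRCm38.p6. They lie at chr6:135362681-135362930 on the plus strand for Emp1, chr11:95076715-95076964 on the minus strand for Itga3, chr15:102231936-102232185 on the minus strand for Itgb7 and chr8:128685404-128685653 on the plus strand for Itgb1. Capitals mark matches, on either strand, to the letters TTCNNNGAA or the same arms with 1 more base between them (STAT-type letters), GTCTAGAC or CAGACA (SMAD-type letters) and TGACTCA (the AP-1 site, which reads TGAGTCA on the other strand).
Emp1: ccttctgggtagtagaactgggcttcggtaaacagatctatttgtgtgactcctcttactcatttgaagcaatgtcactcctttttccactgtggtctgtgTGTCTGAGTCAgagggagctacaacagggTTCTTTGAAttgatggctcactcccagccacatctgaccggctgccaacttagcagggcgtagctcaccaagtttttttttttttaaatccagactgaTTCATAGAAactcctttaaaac
Itga3: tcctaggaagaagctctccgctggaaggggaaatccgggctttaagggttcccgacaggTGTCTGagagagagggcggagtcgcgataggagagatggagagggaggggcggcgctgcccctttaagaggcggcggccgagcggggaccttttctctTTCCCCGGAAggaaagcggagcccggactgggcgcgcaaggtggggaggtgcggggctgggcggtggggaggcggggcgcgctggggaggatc
Itgb7: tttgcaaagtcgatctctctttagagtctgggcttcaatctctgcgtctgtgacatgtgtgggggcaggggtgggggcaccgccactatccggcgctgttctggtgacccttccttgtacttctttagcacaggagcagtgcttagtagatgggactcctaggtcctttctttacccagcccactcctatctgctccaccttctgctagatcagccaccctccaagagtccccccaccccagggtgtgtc
Itgb1: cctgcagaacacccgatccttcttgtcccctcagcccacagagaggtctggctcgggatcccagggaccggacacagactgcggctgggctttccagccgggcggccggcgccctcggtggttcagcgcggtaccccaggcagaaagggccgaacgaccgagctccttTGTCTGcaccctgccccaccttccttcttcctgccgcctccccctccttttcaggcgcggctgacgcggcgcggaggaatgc

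The Emp1 window held TTCNNNGAA at 120 to 112 and at 22 to 14 bases before the start, the AP-1 letters at 145 to 139, and CAGACA, read on the opposite strand, at 149 to 144, where it overlaps the AP-1 letters. The Itga3 window held the wider STAT-type letters at 93 to 84 bases before the start and CAGACA on the opposite strand at 191 to 186. The Itgb1 window held CAGACA on the opposite strand at 82 to 77, and the Itgb7 window held none of these letters. Among all 32851 windows of this length, 7.02% held TTCNNNGAA, 5.85% the wider form, 0.167% GTCTAGAC, 17.1% CAGACA and 4.46% the AP-1 letters. Emp1 and Itga3 have a further start in the table, whose windows held no match. The windows also differed in base composition. GC content was 67.6% for Itga3 and 68.0% for Itgb1, with 22 and 21 CpG dinucleotides, and 56.0% for Itgb7 and 44.4% for Emp1, with 5 and 3. The median over all windows was 52.4% GC and 6 CpG. A match is a run of letters and not a measured binding site.

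**Figure D1:**
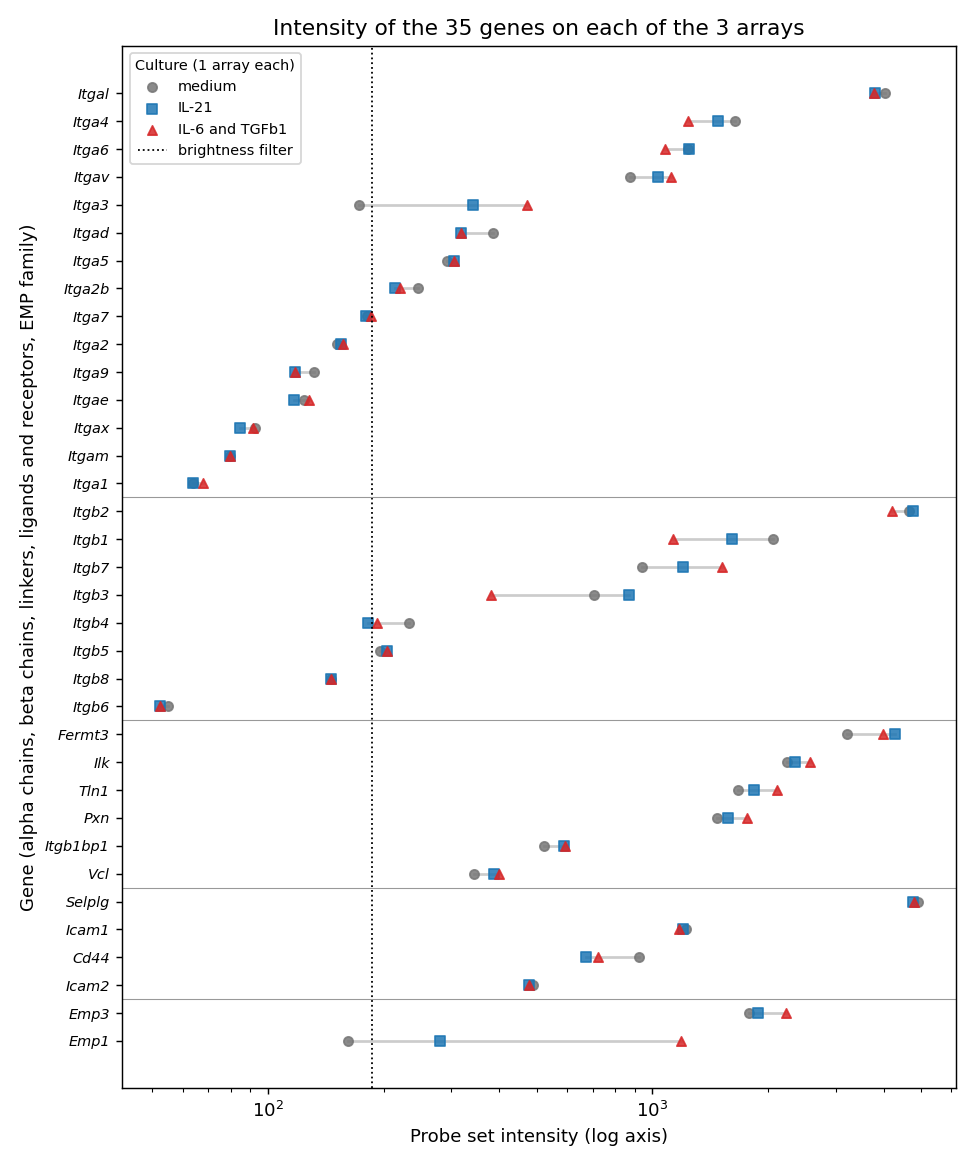
Probe set intensity (log axis) of the 35 genes in rows, grouped from top to bottom as alpha chains, beta chains, linkers, ligands and receptors, and EMP family. Each symbol is 1 array, and the dotted line is the brightness filter of 187. For most genes the 3 symbols lie close together, while Emp1, Itga3, Itgb7, Itgb1 and Itgb3 spread apart.

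Compared with medium, most of the adhesion genes were close to where they were in both treated cultures. With IL-21, 0 of 26 genes were at least 2-fold higher or lower, against 0.591% of all compared genes, and 2 (Itga3 and Emp1) were at least 1.5-fold higher, against 2.04%, and 0 at least 1.5-fold lower, against 0.5%. With IL-6 and TGFb1, 2 of 26 (Emp1 and Itga3) were at least 2-fold higher, against 0.673% of all compared genes, and 0 were at least 2-fold lower, against 0.364%. The medium values of Emp1 (162) and Itga3 (172) lay below the filter, so both were compared only because their treated values were high, and their place in these counts is a description. At 1.5-fold, 3 were higher (Emp1, Itga3 and Itgb7), against 2.61% of all genes, and 2 were lower (Itgb1 and Itgb3), against 1%. The median difference of the 26 genes was 0.06 under IL-21 and 0.01 under IL-6 and TGFb1, and over all compared genes it was 0.04 and 0.02. Thus the middle of the group lay where the array as a whole lay, and the differences past 1.5-fold were those of the 5 genes named above. The 6 linkers, all above medium by less than 1.5-fold, are described below. Both comparisons subtract the same medium array. At 1.5-fold or more the calls over all genes were 80.3% on the higher side under IL-21, 88.9% with arrays centred on their medians and 73.9% after quantile normalization.

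**Figure D2:**
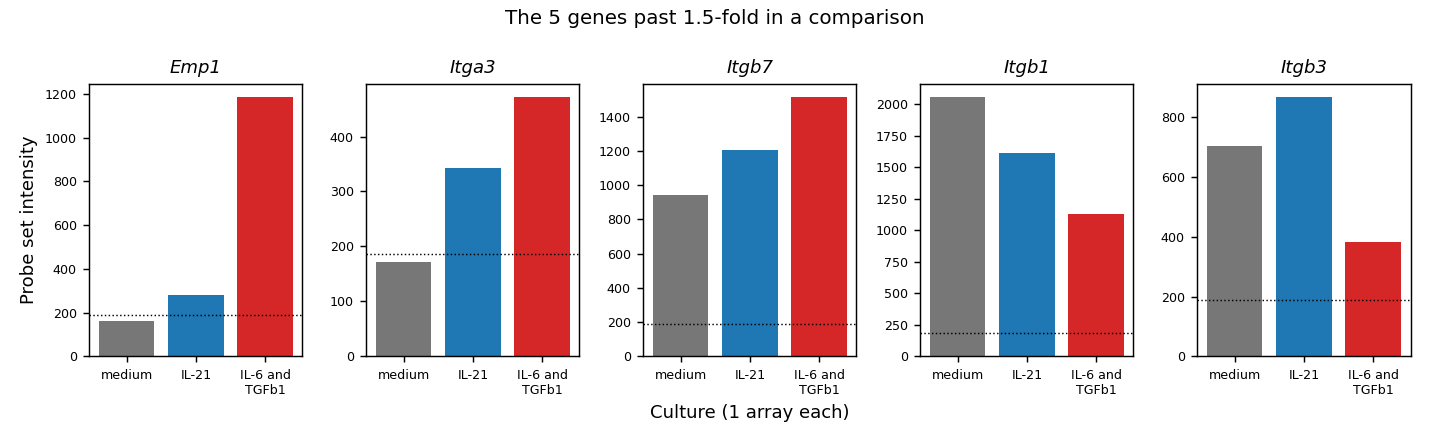
Intensity of the 5 genes past 1.5-fold in a comparison, 1 panel for each gene with its own vertical axis from 0, and 1 bar for each array. The dotted line is the brightness filter of 187. Emp1, Itga3 and Itgb7 were highest under IL-6 and TGFb1, Itgb1 and Itgb3 were lowest there, and only Itgb3 was higher under IL-21 than with medium while lower under IL-6 and TGFb1.

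Among the alpha chains, Itga3 differed most. It encodes the alpha3 chain, which pairs with the beta1 chain as a laminin receptor and is best known from epithelium. The intensity of Itga3 (probe set 10390117) was 172 with medium, 342 under IL-21 and 473 under IL-6 and TGFb1. The medium value lay below the filter and both treated values above it. The difference from medium was 0.98 under IL-21 (1.98-fold) and 1.45 under IL-6 and TGFb1 (2.73-fold). Differences at least this high were found in 0.527% and 0.336% of all compared genes. With IL-21, Itga3 passed 2-fold with arrays centred on their medians (1.05).

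The alpha4 chain gene Itga4, which serves lymphocyte homing with either beta partner, had intensities of 1646 with medium, 1486 under IL-21 and 1243 under IL-6 and TGFb1. It was lowest in the latter culture, with a difference of -0.41, a value at or below which 1.82% of compared genes lay, and of -0.15 under IL-21. Itgav encodes the alphav chain of RGD-binding receptors, some of which activate latent TGF-beta. Its intensities were 874, 1035 and 1122 in the same order, and its differences were 0.24 and 0.36. The laminin receptor chain gene Itga6 had 1239, 1249 and 1077, with differences of 0.01 (-0.08 under quantile normalization) and -0.20. Itgal, the LFA-1 alpha chain gene, was bright and nearly level at 4042, 3792 and 3784, with differences of -0.09 and -0.10.

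The other compared alpha chains were dim. Itga5, the fibronectin receptor chain gene, had 293, 305 and 305, and its differences were 0.06 in both comparisons. Itgad had 386 with medium and 317 with each treatment (-0.28 in both). A second, dimmer probe set had -0.23 and -0.03. Itga2b, the platelet integrin alpha chain gene, had 245, 214 and 220.1, with differences of -0.20 and -0.15. The 4 platelet and megakaryocyte markers read all stayed under the filter, at 80.9 to 153. Itga2b lies in the dimmest of 4 equal brightness groups of compared genes, of which 53.6% were below 0 under IL-21, with a 5th percentile of -0.37.

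The remaining 7 alpha chains were below the filter on every array and were not compared. Itga7 came closest, with a highest intensity of 186. Itgae, the CD103 chain of epithelial T cells, had 124 with medium, 117 under IL-21 and 128 under IL-6 and TGFb1, so that no level of it above the filter was seen in any culture. Itga2 lay between 151 and 157, Itga9 between 118 and 132, and Itga1 between 63.7 and 67.9. Itgax, a myeloid chain gene, lay between 84.8 and 92.6, and Itgam, another, was 79.5 on all 3 arrays. Itgam, Itgax and Itgad are next to each other on chromosome 7 in RefSeq's gene order, and of these only Itgad reached the filter. Of 8 myeloid markers, 1 reached the filter, with 190 at its highest. Exactly equal values on all 3 arrays were found for 2908 probe sets, and among the 35 genes for Itgam and Itgb8.

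Among the beta chains, Itgb1 and Itgb7 went opposite ways. Itgb1 encodes the beta1 chain, the partner of many alpha chains in matrix receptors, and Itgb7 encodes the beta7 chain of gut homing receptors. The intensity of Itgb1 (probe set 10576661) was 2061 with medium, 1612 under IL-21 and 1131 under IL-6 and TGFb1. Its difference from medium was -0.35 under IL-21 (1.28-fold lower) and -0.87 under IL-6 and TGFb1 (1.82-fold lower). Only 0.482% of compared genes were as low or lower in the latter comparison, and 2.39% in the former. The intensity of Itgb7 (probe set 10432957) was 942 with medium, 1206 under IL-21 and 1518 under IL-6 and TGFb1. Its difference was 0.36 under IL-21 (1.28-fold higher) and 0.69 under IL-6 and TGFb1 (1.61-fold higher). In the former 6.88% of compared genes were as high or higher, and in the latter 1.81%. The IL-21 differences of Itgb1 and Itgb7 were both smaller in size than the 95th percentile of the gap between probe sets of a gene (0.41). Both genes were bright on all 3 arrays, and in both the IL-21 value lay between the other two.

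Set against each other within the arrays, the difference of Itgb7 minus that of Itgb1 was 0.71 under IL-21 and 1.55 under IL-6 and TGFb1, a quantity that array scaling by a common factor leaves almost unchanged. Their shared partner Itga4 lay between them in both comparisons. Itga4 was lower than Itgb7 in difference from medium by 1.09 under IL-6 and TGFb1, and Itga3 exceeded its only beta partner, Itgb1, by 2.31. These are differences in change and not in level, since intensities of separate probe sets are not on a common scale.

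Itgb3 encodes the beta3 chain, the partner of the alphav chain in the vitronectin receptor. Its intensity (probe set 10381809) was 704 with medium, 868 under IL-21 and 382 under IL-6 and TGFb1. It was highest under IL-21 (0.30) and lowest under IL-6 and TGFb1 (-0.88, 1.84-fold lower). As low or lower under IL-6 and TGFb1 were 0.454% of compared genes, while 9.68% were as high or higher under IL-21. The IL-21 difference was smaller than the 95th percentile of the gap between probe sets of a gene (0.41). Under quantile normalization it was 0.20. Its partner Itgav was slightly higher in both treated cultures. Itgb3 also pairs with Itga2b on platelets. The platelet marker genes Pf4 (97.4 on all 3 arrays) and Ppbp (80.9 to 84.4) were below the filter. So were Gp9 (153 with medium and 147 with each treatment) and Gp5 (137 with medium and 119 with each treatment). Any part of platelets in the Itgb3 values was not tested.

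Itgb2, the beta chain gene of LFA-1 and other leukocyte integrins, was bright and close to level, at 4664 with medium, 4774 under IL-21 and 4204 under IL-6 and TGFb1 (0.03 and -0.15). Together with the level Itgal, both LFA-1 chains were within 0.15 of medium. Itgb4, the epithelial beta4 chain gene, was dim, at 233, 182 and 192 (-0.35 and -0.27), which lay above the 5th percentile of the same brightness group for IL-21. Itgb5, another alphav partner, had 196, 205 and 205, and its differences were 0.06 in both comparisons. Itgb8, whose product activates latent TGF-beta with the alphav chain, was 146 on all 3 arrays, and Itgb6 lay between 52.5 and 55.1, so these 2 were not compared.

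**Figure D3:**
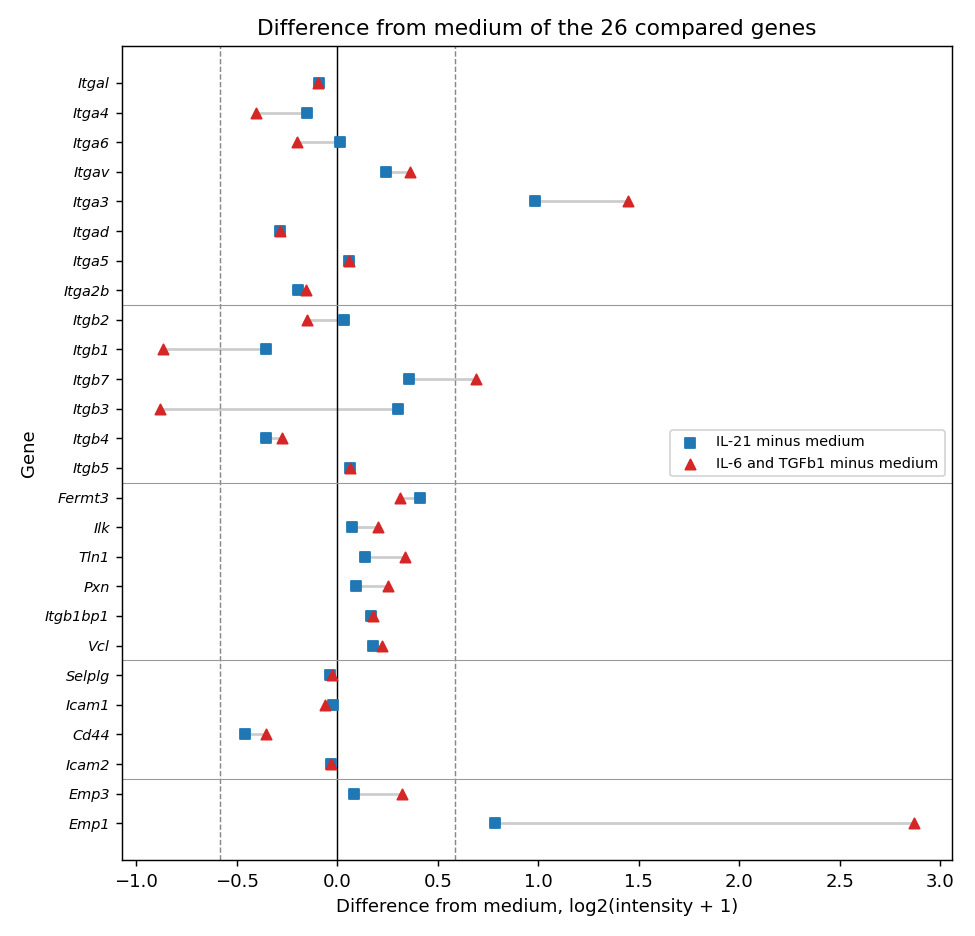
Difference from medium in log2(intensity + 1) of the 26 compared genes, in the same groups, under IL-21 as squares and IL-6 and TGFb1 as triangles. The dashed lines mark 1.5-fold. Emp1 under IL-6 and TGFb1 lies far to the right at 2.87, Itgb1 and Itgb3 lie left of the lower line at -0.87 and -0.88, and all 6 linkers lie to the right of 0 within 1.5-fold.

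The 6 linker and regulator genes were all somewhat above medium in both treated cultures, and none reached 1.5-fold. Their median difference was 0.15 under IL-21 and 0.24 under IL-6 and TGFb1. All 6 were above 0 in each comparison, where 59.8% of all compared genes were above 0 under IL-21 and 56.3% under IL-6 and TGFb1. Under quantile normalization these shares were 45.4% and 48.7%, and with arrays centred on their medians 82.2% and 68.8%, while all 6 linkers stayed above 0 in both. Genes of middle brightness were more often above 0 than the whole: in the group that holds Vcl and Itgb1bp1 73.7% were under IL-21 and 68.2% under IL-6 and TGFb1, and in the group that holds Pxn 75.4% and 65.3%. In the brightest group, which holds Fermt3, Tln1 and Ilk, the shares were 54.9% and 49.5%. Fermt3, the kindlin of blood cells, had intensities of 3215 with medium, 4278 under IL-21 and 3999 under IL-6 and TGFb1. Its difference of 0.41 under IL-21 was the highest of the 6, and under IL-6 and TGFb1 it was 0.31. Tln1, the gene of talin, had 1668, 1838 and 2109, with differences of 0.14 and 0.34.

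The remaining linkers showed small differences in the same direction. Pxn, which encodes the adaptor paxillin, had 1479, 1576 and 1764 (0.09 and 0.25). Ilk, the gene of integrin-linked kinase, had 2239, 2358 and 2578 (0.07 and 0.20). For these 2 and Tln1 the highest value was under IL-6 and TGFb1. Vcl, the vinculin gene, had 343, 388 and 400.2 (0.18 and 0.22). Itgb1bp1 encodes ICAP1, which binds the beta1 tail and opposes talin there, and it had 523, 588 and 591 (0.17 and 0.18). Of the linkers, only Fermt3 under IL-21 reached the 95th percentile of the gap between probe sets of a gene, and narrowly (0.412 against 0.406). Under quantile normalization its difference was 0.4, below that mark. The other differences of the 6 genes from medium were smaller than the gap.

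The ligand and surface receptor genes were level or below medium. Icam1, an LFA-1 ligand gene induced by inflammation, had 1223 with medium, 1204 under IL-21 and 1173 under IL-6 and TGFb1 (-0.02 and -0.06). Icam2, a constitutive LFA-1 ligand gene, had 489, 479 and 479 (-0.03 in both). Selplg, which encodes the P-selectin ligand PSGL-1, had 4907, 4782 and 4813 (-0.04 and -0.03). These 3 were thus nearly the same on every array, and with arrays centred on their medians their IL-21 differences were above 0. Cd44, the hyaluronan receptor gene and a marker of activated and memory T cells, was the exception. Its intensities were 927, 674 and 725, with the highest value in medium, and its differences were -0.46 under IL-21 and -0.35 under IL-6 and TGFb1. Of all compared genes 1.15% and 2.47% were as low or lower.

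Emp1 stood farthest from medium of the 26 genes under IL-6 and TGFb1, and farthest apart between the cytokine cultures. Its intensity (probe set 10542355) was 162 with medium, 279.6 under IL-21 and 1188 under IL-6 and TGFb1. The medium value was below the filter, so that the fold against it is the less certain. The difference from medium was 0.79 under IL-21 (1.73-fold) and 2.87 under IL-6 and TGFb1 (7.31-fold), and 7 of the 11003 genes, Emp1 included, were as high or higher in the latter. The related gene Emp3 was bright, with 1785, 1891 and 2233, and its differences were 0.08 and 0.32. Without Emp1 and Emp3, the median of the remaining 24 genes was 0.05 under IL-21 and -0.03 under IL-6 and TGFb1, and 1 gene (Itga3) was past 2-fold in the latter comparison.

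IL-21 was also set directly against the pair IL-6 and TGFb1, which leaves the medium array out. Of the 26 genes, 1 was at least 2-fold higher under IL-21 (Itgb3), against 0.273% of all compared genes, and 1 was at least 2-fold lower (Emp1), against 0.191%. Itgb3 had a difference of 1.18 (2.27-fold higher under IL-21), and 0.191% of genes were as high or higher. Emp1 had a difference of -2.08, and 5 genes, itself included, were as low or lower. At 1.5-fold the count was the same 2 of 26, against 1.45% of all genes. Short of it were Itgb1 (0.51), Itga4 (0.26), Itga6 (0.21) and Itgb2 (0.18), with higher values under IL-21, and Itga3 (-0.47), Itgb7 (-0.33), Emp3 (-0.24) and Tln1 (-0.20), with lower values under IL-21. Of the 6 linkers, 5 were below 0 here, against 42.3% of all compared genes, with a median of -0.09. Fermt3 alone was above 0 (0.10), and 2 of the 6 were with arrays centred on their medians. The median of the 26 genes was -0.01, and that of all genes was 0.00. Exactly 0 were the differences of Itga5, Itgad, Itgb5 and Icam2, and of 13% of all compared genes.

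**Figure D4:**
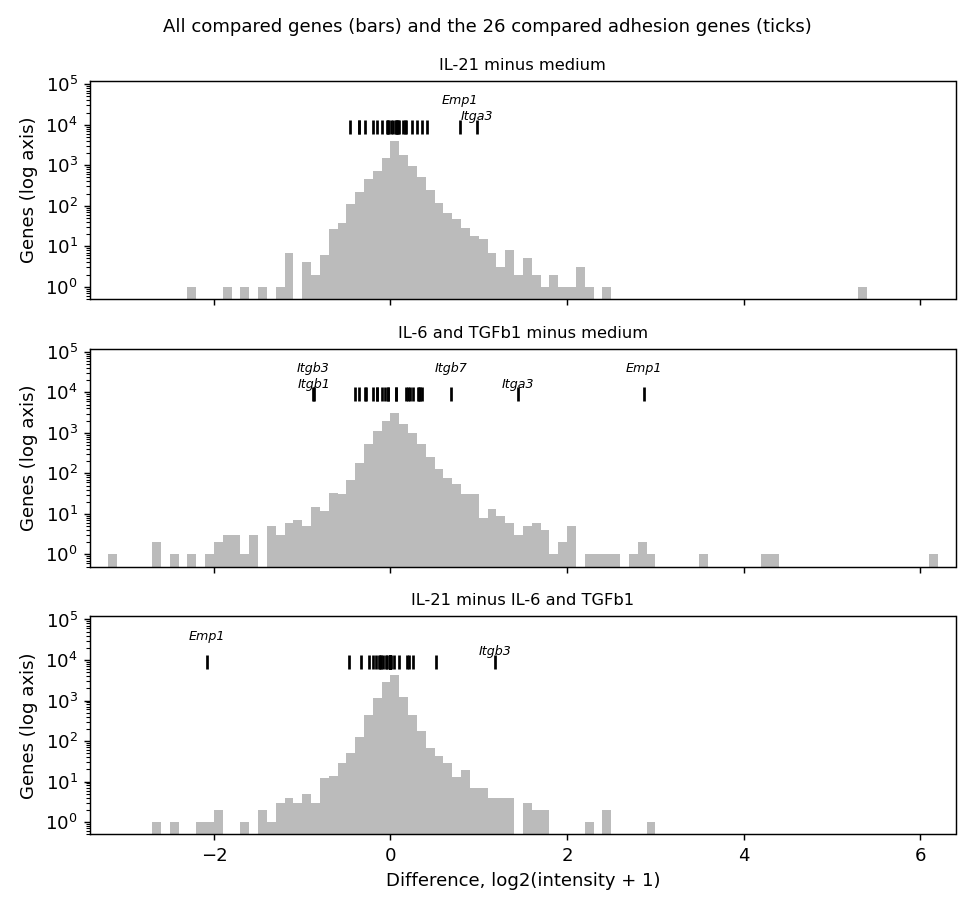
Number of compared genes (log axis) by difference in log2(intensity + 1), in bins of 0.1, for the 3 comparisons, with the 26 adhesion genes as ticks and those past 1.5-fold named. Most ticks sit over the centre of the distribution, and Emp1 sits in its outer tail in the 2 comparisons that include the IL-6 and TGFb1 array.

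Further genes of the pathway were read from lists of genes by role. These lists were chosen with earlier results of these data known, so their counts are a description. Of 18 compared genes of inside-out signalling, which carries receptor signals to talin, 1 was at least 1.5-fold higher in each comparison with medium and 0 lower, with medians of 0.01 with each treatment. Among all compared genes 2.04% were this much higher under IL-21 and 2.61% under IL-6 and TGFb1, and 0.5% and 1% were this much lower, which is the background for the lists that follow too. That gene was Skap2, an adaptor of the SKAP family, with 219 with medium, 423 under IL-21 and 389.7 under IL-6 and TGFb1 (0.94 and 0.83). The GTPase exchange factor gene Rapgef2 had differences of 0.47 and 0.32, Rap1gap2, a dim Rap GTPase-activating protein gene, had -0.22 and 0.07, and Rasgrp1, an exchange factor downstream of the T cell receptor, had -0.05 and -0.28. The GTPase genes Rap1a (-0.06 in both) and Rap1b (-0.03 and 0.02) were level.

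Of 22 compared focal adhesion and linker genes outside the group, 1 was at least 1.5-fold higher under IL-21 and 3 under IL-6 and TGFb1, and 0 were lower, against 2.04% and 2.61% of all compared genes on the higher side, while the medians were 0.01 and 0.00. Lpxn, which encodes leupaxin, a leukocyte relative of paxillin, had 871 with medium, 2235 under IL-21 and 3166 under IL-6 and TGFb1. Its differences of 1.36 and 1.86 were past 2-fold in both, and were reached by 0.218% and 0.182% of compared genes, whereas Pxn itself had 0.09 and 0.25. Flna, the gene of the actin crosslinker filamin A, which competes with talin for beta tails, had 1567, 1974 and 2571 (0.33 and 0.71). Zyx, which encodes the focal adhesion LIM protein zyxin, had 597, 871 and 967 (0.54 and 0.69).

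Of 12 compared ligand and matrix genes, 0 were past 1.5-fold under IL-21 and 2 were higher under IL-6 and TGFb1, against 2.61% of all compared genes, with medians of 0.03 and 0.07. These were Lamc1, a laminin chain gene (335, 424 and 567, a difference of 0.76), and Adam9, a membrane metalloprotease gene that can bind integrins (472, 643 and 779.5, a difference of 0.72). The integrin ligand gene Mfge8 had differences of 0.45 and 0.49, and the collagen chain gene Col4a1 had -0.36 and -0.18. Of 10 compared genes of selectins and selectin ligand synthesis, 1 was at least 1.5-fold lower in each comparison and 0 higher, against 0.5% and 1% of all compared genes on the lower side. With IL-21 this was B4galt1, a galactosyltransferase gene (2587, 1655 and 1928, with differences of -0.64 and -0.42), and under IL-6 and TGFb1 it was the fucosyltransferase gene Fut4 (383, 334 and 248, with -0.20 and -0.62). The sulfotransferase gene Chst2 had 0.44 and 0.17, and the sialyltransferase gene St3gal6 had 0.23 and 0.30. Fut7, whose enzyme makes the selectin ligand form of PSGL-1, had 0.07 and 0.25.

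None of the 7 compared partners of CD44 and of the ERM proteins, which link membrane receptors to actin, and none of the 9 compared tetraspanins and PMP22 relatives was past 1.5-fold in any comparison. In the former Nf2, the merlin gene, had 0.42 and 0.40, the matrix metalloprotease gene Mmp14 had -0.30 in both and the hyaluronan receptor gene Hmmr had 0.03 and -0.18, while the ERM genes Ezr (0.03 in both) and Msn (0.00 and 0.03) were level and Rdx was exactly equal on all 3 arrays. In the latter Cd151, an integrin-binding tetraspanin gene, had 0.30 and 0.43. The tetraspanin genes Cd9 (0.23 and -0.24) and Cd37 (0.10 and 0.27) and the myelin protein gene Pmp22 (-0.26 and -0.12) followed. Of the 4 integrin chain genes outside the group only Itga10 reached the filter, and its difference was -0.06 in both comparisons.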

How the data were processed

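The deposited table held an intensity per array for 28815 probe sets and 3 arrays. Per the labels' protocols, an Affymetrix WT terminal labelling kit was used for fragmentation and to attach biotin. Per the submitters' processing notes the build was mm8. For the step from scans to intensities, the method is not stated in the labels, and the linear scale was read from the values. Exact ties between arrays put many small differences at 0.

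The platform annotation gave 1 symbol for 21780 probe sets, several for 1605 and none for 5430. By Entrez identifier 21689 matched RefSeq (GRCm38.p6, used for names, gene order and promoters), and 0 symbols changed. The pseudocount was 1, and no further normalization was applied. The members and lists were chosen with earlier results of these data known. The named genes followed a rule: every member, then, in each comparison with medium, the 3 genes of each other list with the largest differences in size, plus any gene past 2-fold. Rap1a, Rap1b, Fut7, Ezr, Msn and Rdx were named for their role, after their values were seen. The 8 alternatives changed the pseudocount to 16, raised low values to the 20th percentile, normalized by quantiles, centred each array on its median, dropped the filter or set it at the 75th percentile, or used another probe set rule. The calculations were checked on simulated arrays. Python 3.11.15 and pandas 2.3.3 were used.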

Additional observations from a re-analysis of the deposited data

How the results depend on the processing

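With 1 array for each culture, no array could be left out and no paired analysis was possible because no culture had replicates. The 26 genes gave 198 values per comparison under the 8 alternatives. All were shifted from the reported value by no more than the 95th percentile of the gap between probe sets of a gene. Raising low values and changing the filter could not move a difference, and another probe set rule could move only that of Itgad. Many of the 198 values could therefore only repeat the reported one. Centring moved every difference of a comparison by the same amount, and so could not set genes apart. Staying within the gap is thus a weak check. None of the differences past 1.5-fold changed sign. For IL-21 against medium 4 values changed sign, and for IL-6 and TGFb1 against medium 0 did. Between the 2 treatments 13 values did not keep their sign. These include values of Itga5, Itgad, Itgb5 and Icam2 that only moved off exactly 0. With arrays centred on their medians, 1 gene (Itga3) passed 2-fold under IL-21 and the median under IL-21 was 0.13. With the filter at the 75th percentile, an intensity of 785, Itga3 was not compared. This left 1 gene (Emp1) past 1.5-fold under IL-21 and 1 past 2-fold under IL-6 and TGFb1. Emp1 passed this filter only through its value of 1188 under IL-6 and TGFb1. With medium it had 162 and under IL-21 279.6, so its place in these counts is a description. Emp1 under IL-6 and TGFb1 ranged from 2.76 to 2.89, Itgb1 from -0.91 to -0.84, Itgb3 from -0.96 to -0.86 and Itgb7 from 0.63 to 0.71. Values near the filter are limited by signal over background, which the deposited table does not give.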

Other observations

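The genes next to the 35 adhesion genes in RefSeq's order of protein-coding genes were also read. Of 43 such neighbours that were compared and are not themselves in the group, 1 was past 1.5-fold in each comparison, and it was the same gene, Nrp1, the neighbour of Itgb1 on chromosome 8. Over all compared genes 2.54% were past 1.5-fold under IL-21, 3.61% under IL-6 and TGFb1 and 1.45% between these 2 arrays, so 1 of 43 is near the background. Nrp1 encodes neuropilin-1, a semaphorin and growth factor co-receptor. Its intensity was 485 with medium, 303 under IL-21 and 142 under IL-6 and TGFb1, with differences from medium of -0.68 and -1.76. It had the same order of the 3 arrays as Itgb1, at 2061, 1612 and 1131. The Nrp1 value under IL-6 and TGFb1 lay below the brightness filter. The neighbours of Itgb7 (Zfp740 and Rarg) and of Itga3 (Pdk2 and Dlx3) were within 0.27 of medium in both comparisons, and Myl4 beside Itgb3 had -0.03 and -0.24. Nrp1 was singled out after its values were seen, and any link between it and Itgb1 was not tested.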
